A study of Mus musculus with 2 samples.

Results

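The 9 genes described here are the immune checkpoint and exhaustion genes Pdcd1, Cd274, Lag3, Havcr2, Tigit, Ctla4, Tox, Icos and Cd160. They were chosen by name, and all 9 of the 9 were found among the 32285 genes measured in both libraries. Each was followed across CD8, CD4 and natural killer (NK) lymphocytes, myeloid cells, endothelium and tubule segments. The cells were droplet barcodes with no fewer than 500 unique molecular identifiers (UMIs, each a counted RNA molecule) and 200 detected genes. No more than 50% of their UMIs were mitochondrial.

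Mouse kidneys were collected 14 days after ischaemia-reperfusion injury of 1 kidney, which was produced by clamping its artery. The control library came from Cre- mice, and the haplodeficient library from Cdh5-CreERT2; Phd3f/+ mice, whose Cre is driven by the endothelial Cdh5 promoter and becomes active with tamoxifen. Mice of both groups received the injury and 4 tamoxifen injections, and both libraries belonged to batch 1. The series asks about endothelial PHD3, an oxygen-sensing prolyl hydroxylase encoded by Egln3, in inflammation and repair after ischaemia. The labels do not say how many animals went into a library, their age or strain, or whether the controls carried the floxed allele. With 1 library per group no test between the groups was possible. All 95% intervals below are exact and cover counting error only, not differences between animals.

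Immune checkpoints are receptor and ligand pairs that tune how strongly lymphocytes respond once their antigen receptor is engaged. PD-1 (Pdcd1) on T cells binds PD-L1 (Cd274), and CTLA-4 (Ctla4) competes with CD28 for CD80 and CD86 on antigen-presenting cells. LAG-3, TIM-3 (Havcr2), TIGIT and CD160 are further receptors that can restrain T or NK cells, whereas ICOS (Icos) is costimulatory. TOX (Tox) is a nuclear factor of lymphocyte development that is also needed for the exhausted state of chronically stimulated CD8 T cells. Several of these receptors also appear on recently activated cells, and CTLA-4 and ICOS are abundant on regulatory T cells. In the injured kidney, T cells, phagocytes and surviving tubules lie close together during repair.

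PD-L1 is the classic interferon-inducible member of the group. The 250 bases before the RefSeq gene start are shown for it and for the receptors PD-1 and CTLA-4, since these 3 promoters let a reader see how often a short interferon regulatory factor core, GAAAC on either strand, occurs beside genes of such different cell patterns. Capitals mark the core or its reverse complement; sequences are RefSeq on GRCm38.p6, 5′ to 3′ on the gene's strand.
Cd274, chr19:29367188-29367437, plus strand: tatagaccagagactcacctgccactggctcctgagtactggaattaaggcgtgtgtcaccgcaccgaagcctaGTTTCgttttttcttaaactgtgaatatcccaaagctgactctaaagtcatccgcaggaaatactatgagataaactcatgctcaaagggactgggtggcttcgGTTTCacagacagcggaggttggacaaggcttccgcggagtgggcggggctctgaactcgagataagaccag
Pdcd1, chr1:94052554-94052803, minus strand: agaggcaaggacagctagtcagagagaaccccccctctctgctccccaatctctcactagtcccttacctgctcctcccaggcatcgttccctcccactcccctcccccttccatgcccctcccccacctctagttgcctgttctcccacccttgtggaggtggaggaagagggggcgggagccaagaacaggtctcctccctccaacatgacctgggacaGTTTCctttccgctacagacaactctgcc
Ctla4, chr1:60908775-60909024, plus strand: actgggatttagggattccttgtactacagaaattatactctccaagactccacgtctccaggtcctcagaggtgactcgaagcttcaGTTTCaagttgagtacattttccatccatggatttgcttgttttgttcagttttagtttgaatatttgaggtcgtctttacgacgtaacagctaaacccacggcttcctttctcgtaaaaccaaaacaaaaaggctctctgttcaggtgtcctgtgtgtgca
The Ctla4 window lies inside the longer gene span that GENCODE gives below, which begins before the window. The Cd274 window held 2 cores, and the Pdcd1 and Ctla4 windows held 1 each. Of the members not shown, Tigit also held 2, and Havcr2 and both Cd160 windows held 0. At least 1 core was present in 39.7% of 32851 promoters of the same length and at least 2 were present in 10.3%. The longer interferon-stimulated core, a pair of GAAA runs in the same direction with 2 bases between them, and the interferon-gamma activated core TTCNNNGAA, searched on both strands, matched none of these 3 windows; the second of them matched 1 Cd160 window. Across all promoters they matched 2.98% and 7.02%. A match describes letters only. Among the 9 members 6 had a promoter entry; Lag3, Tox and Icos had none.

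In GENCODE M21 on GRCm38, Ctla4 (chr1:60887000-60915832) and Icos (chr1:60977927-61000320) lie on the plus strand with 62095 bases between them. Pdcd1 occupies chr1:94038305-94052553 on the minus strand. Cd274 occupies chr19:29367455-29388095 on the plus strand. Lag3 occupies chr6:124904361-124911705, Tigit chr16:43648867-43664146 and Tox chr4:6686353-6991557, all on the minus strand. Havcr2 occupies chr11:46454935-46481255 on the plus strand and Cd160 chr3:96798763-96829351 on the minus strand. Antisense or opposite-strand genes overlap Cd274, Tox and Cd160, and smaller same-strand genes lie inside Ctla4 and Icos, so counts of these members could include or lose some reads of a neighbour. Ptms lies 1976 bases from Lag3 on the same strand, and its part in the low Lag3 counts was not tested.

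After removal of likely doublets, 8737 control and 9222 haplodeficient cells remained, with median depths of 8796 and 5482.5 UMIs. They shared 23 cell barcodes. The median mitochondrial share was 10.1% in control cells and 2.69% in haplodeficient cells. The control library was rich in proximal tubule cells (34.7% of cells against 3.94%) and poor in lymphocytes. Among its cells were 64 CD8 T cells, 30 CD4 T cells, 59 T cells with neither a Cd4 nor a Cd8 UMI, 24 gamma-delta T cells and 21 NK-like cells. The haplodeficient library held 416, 201, 292, 118 and 135 of these, so most lymphocyte intervals are wide on the control side. Cell suspension yield and tissue content cannot be told apart in these shares. Egln3 was at 23.7 CPM (UMIs of a gene per 1000000 UMIs of the class) in endothelium of each library (intervals 17.2 to 31.8 and 19.3 to 28.8). The allele's deleted part is not given in the sources used here, so a 3′ tag checks nothing about the deletion. UMIs of proximal tubule marker genes summed to 521 CPM in control CD8 cells and 110 CPM in haplodeficient ones. The corresponding sums were 442 and 48.4 CPM in CD4 cells, and 522 and 10.3 CPM in NK-like cells. Their part in the results below was not tested.

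The members fell into 3 patterns by cell type. Pdcd1, Ctla4, Tigit, Icos and Cd160 were concentrated in T and NK cells. Cd274 and Havcr2 were highest in myeloid cells, setting aside for Cd274 the 1 control T cell with both Cd4 and Cd8 UMIs. Tox was highest in T and NK cells but was also present in distal nephron segments, and Lag3 was low in every class. Levels are compared between classes within a gene only, because 3′ tag counts do not rank genes against each other.

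**Figure D1:**
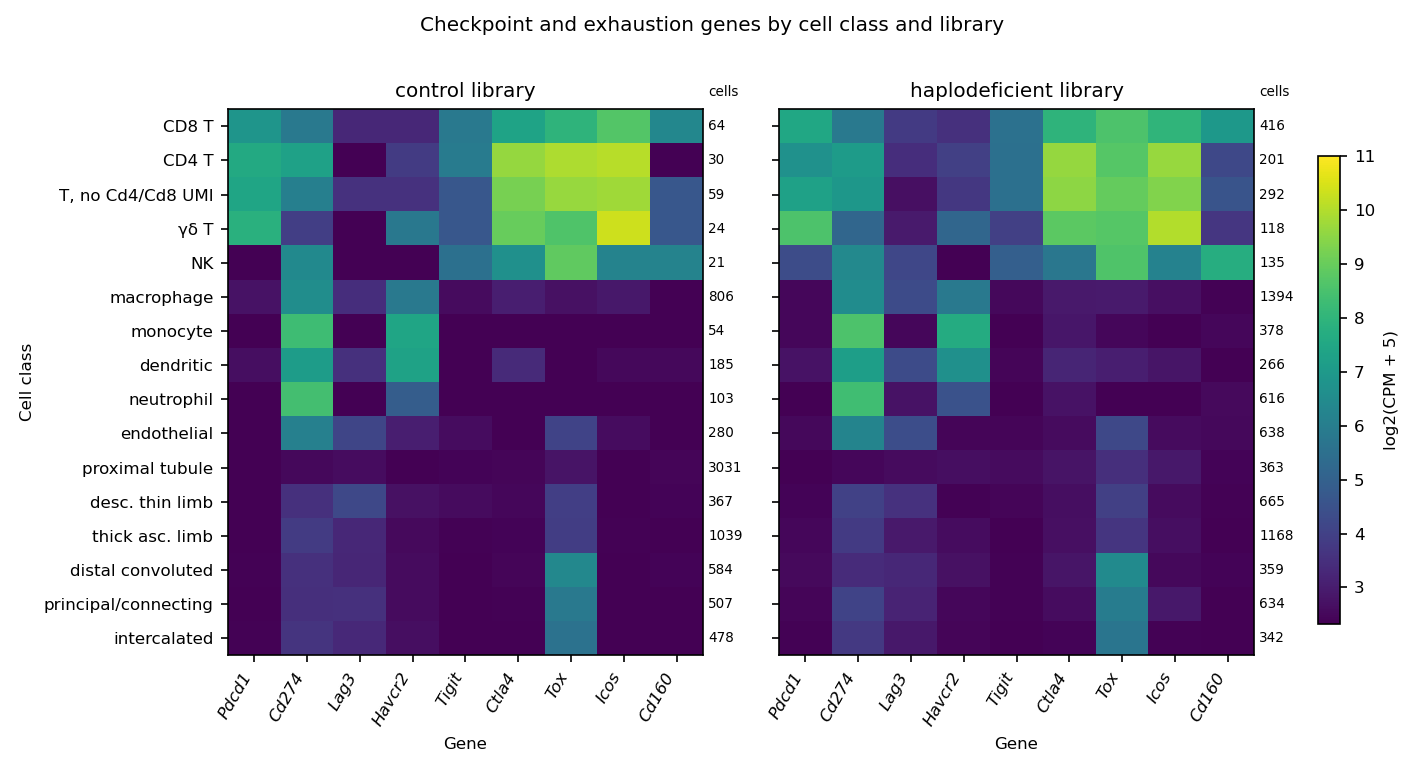
Heat map of the 9 members (columns) in each cell class (rows) of the control and haplodeficient libraries, as log2(CPM + 5), with the number of cells at the right. The lymphocyte rows carry Pdcd1, Ctla4, Icos and Tox, the myeloid rows carry Cd274 and Havcr2, and Tox is also visible in the distal convoluted tubule at 77.9 and 83.4 CPM.

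Pdcd1, the gene of PD-1, was highest in gamma-delta T cells of both libraries. Its level there was 223 CPM in the control (140 to 337) and 375 CPM in the haplodeficient library (316 to 442), a ratio of 1.68 (1.07 to 2.77). The haplodeficient gamma-delta interval lay above that of CD8 cells, whereas in the control the gamma-delta, CD4, double-negative and CD8 intervals overlapped. In CD8 cells Pdcd1 was at 110 CPM in the control (69.7 to 165; 23 UMIs) and 173 CPM in the haplodeficient library (152 to 197; 236 UMIs). The CD8 ratio of 1.57 (1.02 to 2.53) was below 2-fold and the intervals of the levels overlapped. In CD4 cells the order was opposite, with 188 CPM in the control (115 to 290) and 101 CPM in the haplodeficient library (78.5 to 129), a ratio of 0.539 (0.323 to 0.938). Both values depended on how T cells were divided: when classes were taken from subclusters instead of Cd4 and Cd8 UMIs, the log2 difference was 0.08 in place of 0.63 for CD8 cells and -0.06 in place of -0.86 for CD4 cells. Without cells holding an Mki67 or Top2a UMI the CD4 log2 difference was -1.36. Cell-division markers summed to 1259 CPM in control CD4 cells and 463 CPM in haplodeficient ones. In gamma-delta cells they summed to 1125 and 106 CPM. Their part in these differences was not tested. T cells with neither Cd4 nor Cd8 UMIs had 165 and 150 CPM of Pdcd1, and NK-like cells had 0 and 6 UMIs. In proximal tubule cells Pdcd1 gave 3 UMIs over 3031 control cells and 0 over 363 haplodeficient cells.

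Ctla4, which takes CD80 and CD86 away from CD28, was highest in CD4 cells and did not separate the libraries there. It was at 789 CPM (629 to 977) in control and 779 CPM (713 to 849) in haplodeficient CD4 cells, a ratio of 0.987 (0.782 to 1.26). T cells with neither coreceptor had 586 and 736 CPM, with overlapping intervals. In CD8 cells Ctla4 was at 158 CPM in the control (109 to 221) and 246 CPM in the haplodeficient library (220 to 273), a ratio of 1.56 (1.09 to 2.30). The haplodeficient CD8 level was higher but within 2-fold, and the log2 difference of 0.62 became 0.30 without dividing cells. Gamma-delta cells had 496 and 441 CPM and NK-like cells 96.2 and 48.8 CPM, again with overlapping intervals.

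Tigit, whose product binds CD155 (Pvr) and CD112 (Nectin2), was sparse. CD8 cells had 52.5 CPM in the control (26.2 to 94.0; 11 UMIs) and 41.8 CPM in the haplodeficient library (31.7 to 54.1; 57 UMIs). CD4 cells had 56.4 CPM (20.7 to 123; 6 UMIs) and 40.8 CPM (26.9 to 59.4; 27 UMIs). Neither class separated the libraries, and the CD8 ratio interval ran from 0.413 to 1.68. Lag3, whose product is a CD4-related receptor for MHC class II, gave 1 UMI in control CD8 cells and 12 in haplodeficient ones. In CD4 cells it gave 0 and 4 UMIs. Havcr2 gave 1 and 9 UMIs in CD8 cells, 1 and 7 in CD4 cells and 0 and 0 in NK-like cells. Among lymphocytes it was highest in gamma-delta cells, at 50.7 CPM (16.4 to 118) and 31.7 CPM (16.4 to 55.4), from 5 and 12 UMIs. For Lag3 and Havcr2 no difference between the libraries was detectable in T cells at this depth.

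Cd160, a receptor for HVEM (Tnfrsf14) on NK and CD8 cells, had the largest higher ratio among the members that could be compared in T and NK classes. In NK-like cells it was at 68.7 CPM in the control (22.3 to 160), from 5 UMIs in 3 cells, and at 208 CPM (165 to 259) in the haplodeficient library, from 81 UMIs in 47 cells. The ratio was 3.03 (1.25 to 9.57) and the intervals of the levels did not overlap. The NK-like class did not hold the same cells in both libraries. In the control 18 of its 21 cells belonged to a subcluster led by Ncr1. In the haplodeficient library 57 of 135 did, and 69 belonged to a second subcluster led by Klra5, Klra6 and Klra7 that had no control cell. In this second subcluster Cd160 was at 273 CPM (204 to 357), Cd3e was detected in 84.3% of cells, Trac in 75.7% and Cd8a in 32.9%, and Ncr1 in none. Within the Ncr1-led subcluster alone Cd160 was at 32 CPM (3.88 to 116) and 144 CPM (94.3 to 212), with overlapping intervals. T-cell markers summed to 1251 CPM in the control NK-like class and 4790 CPM in the haplodeficient one. When subclusters were weighted alike the log2 difference was 0.38 in place of 1.53. That weighting used only subclusters with cells in both libraries, so the Klra-led one was left out. It also rests on 1 control cell in a Cd8b1-led subcluster, which held 3 of the 5 control Cd160 UMIs (1420 CPM). In CD8 cells Cd160 was at 76.4 CPM (43.7 to 124) and 119 CPM (101 to 139), a ratio of 1.55 (0.928 to 2.78). CD4 cells gave 0 and 9 UMIs.

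Icos, the costimulatory member, was highest in gamma-delta cells and was lower in the haplodeficient library in the 4 T-cell classes compared. In gamma-delta cells it was at 1287 CPM (1073 to 1531) and 1026 CPM (926 to 1133), a ratio of 0.797 (0.651 to 0.982). In CD4 cells it was at 1080 CPM (892 to 1297) and 798 CPM (732 to 870), a ratio of 0.739 (0.603 to 0.912). The largest gap was in CD8 cells, with 401 CPM in the control (320 to 497) and 254 CPM in the haplodeficient library (228 to 282), a ratio of 0.632 (0.497 to 0.812). In T cells with neither coreceptor the ratio was 0.753 (0.617 to 0.925). The intervals of the levels overlapped in gamma-delta cells and not in the other 3 classes, and none of these ratios was past 2-fold. In cells with neither coreceptor the log2 value of -0.41 became -0.06 without dividing cells. NK-like cells had 68.7 and 66.8 CPM.

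Tox was the member with the clearest lower value. In CD4 cells it was at 977 CPM in the control (798 to 1184), from 104 UMIs in 21 cells, and at 411 CPM (364 to 463) in the haplodeficient library, from 272 UMIs in 93 cells. The ratio was 0.421 (0.335 to 0.533) and the intervals did not overlap. A single control cell held 19 of the 104 UMIs. T cells with neither coreceptor showed the same order, at 813 CPM (673 to 974) and 490 CPM (441 to 544), a ratio of 0.603 (0.488 to 0.749). There 1 control cell held 38 of 118 UMIs, and without the top cell of each library the log2 difference was -0.22 in place of -0.72. Markers of macrophages summed to 1799 CPM in the control cells of that class and 122 CPM in the haplodeficient ones. In CD8 cells Tox was instead higher in the haplodeficient library, at 374 CPM (342 to 408) against 248 CPM (186 to 326), a ratio of 1.51 (1.13 to 2.04), with intervals that did not overlap. Split by subclusters, the CD8 log2 difference was 0.12 in place of 0.58. Gamma-delta cells had 385 and 418 CPM and NK-like cells 467 and 385 CPM, with overlapping intervals.

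Gene by gene, a size rule asked for a difference of at least 2-fold on log2(CPM + 5) with Poisson intervals that did not overlap. It was applied to genes with at least 20 UMIs over both libraries and a mean of at least 20 CPM. Of all genes compared, 3.70% passed in CD8 cells, 2.98% in CD4 cells, 4.40% in T cells with neither coreceptor, 5.29% in gamma-delta cells and 5.41% in NK-like cells. Members could be compared for 7, 6, 6, 4 and 5 genes in these classes. Tox passed in CD4 cells and Cd160 passed in NK-like cells, and no other member passed in a T or NK class. Tox did not pass with doublets kept (log2 -0.97), and Cd160 did not pass under median-of-ratios scaling (1.38) or a UMI minimum of 1000 (1.41). The median log2 difference of the compared members was 0.58 in CD8 cells, where that of all genes was -0.07. In CD4 cells it was -0.43 against 0.01. Of the genes past the rule, the share higher in the haplodeficient library was 27.9% in CD8 cells and 48.4% in NK-like cells. Under median-of-ratios scaling these shares were 40.2% and 30.9%, and the median NK-like gene was shifted by 0.15 on the log2 scale.

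**Figure D2:**
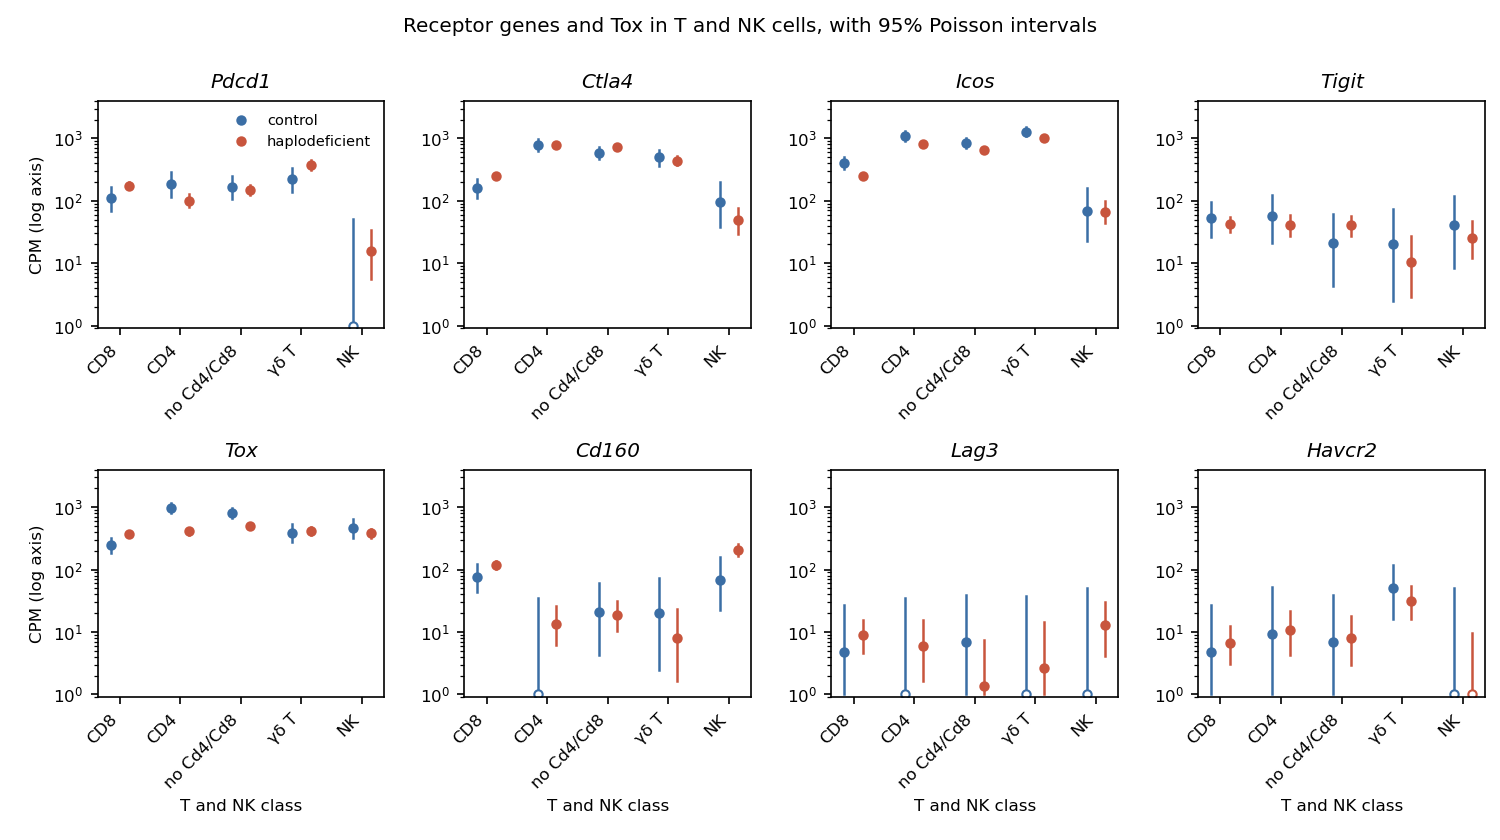
Level of each member except Cd274 in 5 lymphocyte classes of the control and haplodeficient libraries, in CPM on a log axis, with exact Poisson 95% intervals. Open circles drawn at 1 CPM stand for 0. Tox in CD4 cells (977 and 411 CPM) and Cd160 in NK-like cells (68.7 and 208 CPM) are the pairs past the size rule.

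Subclusters of the T and NK cells, made without the 9 members, showed which cells carried these levels. A subcluster led by Il1rl1, Areg and Foxp3, genes of tissue regulatory T cells and type 2 lymphocytes, had 20 control and 101 haplodeficient cells and the highest Tox of the subclusters with at least 10 cells in each library. Its Tox was at 1897 CPM in the control (1573 to 2268) and 774 CPM in the haplodeficient library (683 to 873). Icos there was at 854 CPM (641 to 1114) and 337 CPM (278 to 405), and Ctla4 at 1438 and 1217 CPM. Foxp3 was detected in 30.0% and 26.7% of its cells. Tox was also lower in a subcluster led by Il17f and Ccr6, genes of interleukin-17-producing cells, at 452 CPM (241 to 773) and 154 CPM (108 to 212). That subcluster had the highest Icos in the haplodeficient library, 1768 CPM.

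The CD4 class drew on these subclusters unequally in the libraries. In the control 26.7% of CD4 cells were in the Il1rl1-led subcluster and 10.0% in a subcluster led by Tnf and Cd40lg. In the haplodeficient library the shares were 18.4% and 36.3%. Among CD4 cells of the Il1rl1-led subcluster, 8 control cells gave 1923 CPM of Tox and 37 haplodeficient cells gave 664 CPM. CD4 Tox weighted alike over subclusters had a log2 difference of -0.86 in place of -1.24, so the direction was the same and the size under 2-fold. This value includes the Tnf and Cd40lg subcluster, where 3 control CD4 cells gave 0 Tox UMIs and 73 haplodeficient ones gave 314 CPM.

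The CD8 class was also made up differently. A subcluster led by Ccl4, Ccl3 and Ifng held 26.4% of haplodeficient CD8 cells and 3.12% of control ones. Its haplodeficient cells had 224 CPM of Pdcd1, 331 CPM of Tox and 131 CPM of Cd160. Over all its cells, CD8 class or not, the main Cd8b1-led subcluster had 187 and 175 CPM of Pdcd1 in the libraries and 336 and 377 CPM of Tox. Its CD8-class cells alone, 49 control and 233 haplodeficient, had 157 and 181 CPM of Pdcd1. Tox in these CD8 cells was at 229 CPM in the control and 385 CPM in the haplodeficient library. Icos over the whole subcluster was at 545 CPM (443 to 664) and 312 CPM (274 to 355). Among dividing T cells Icos was at 454 CPM (326 to 616) and 164 CPM (128 to 206), while Tox was at 421 and 404 CPM.

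**Figure D3:**
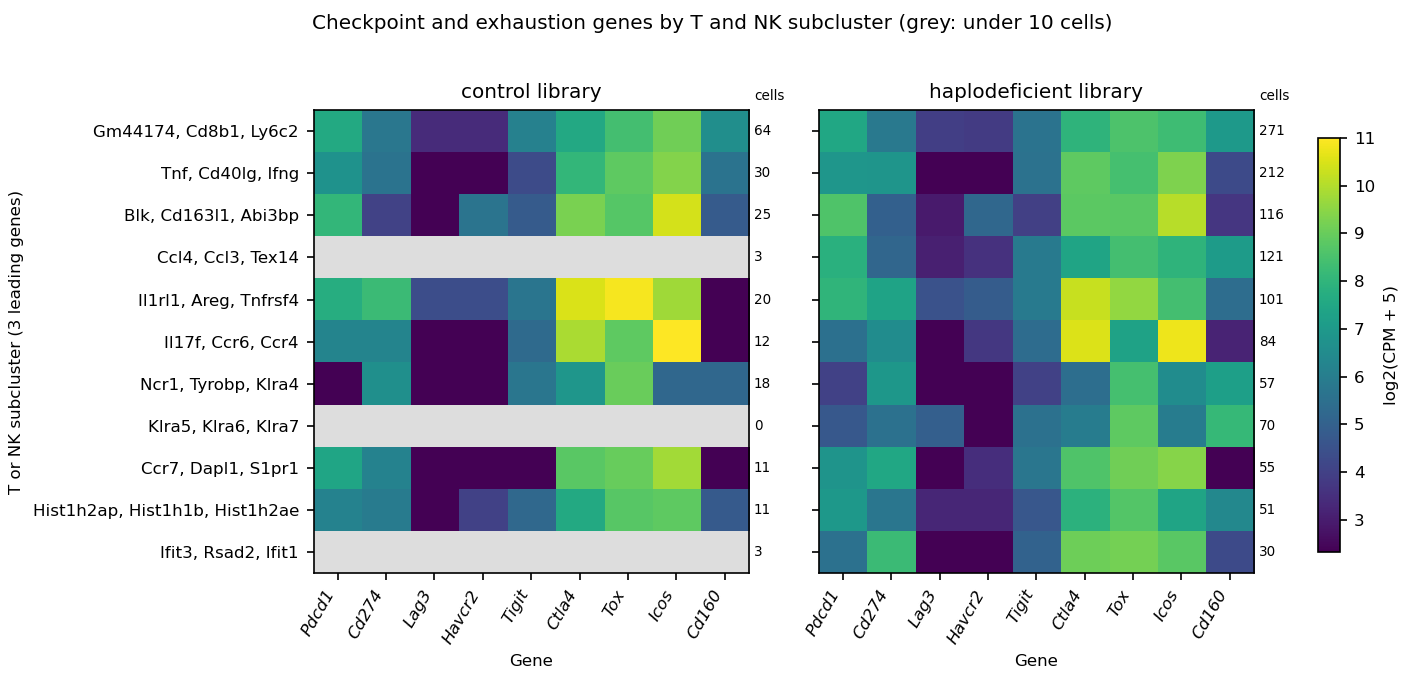
Heat map of the members in the T- and NK-cell subclusters of each library, as log2(CPM + 5), with cell numbers at the right and grey where a library had under 10 cells. The Il1rl1-led subcluster has the strongest Tox in the control (1897 CPM), and the Klra-led subcluster, present in the haplodeficient library only, has the strongest Cd160 (273 CPM).

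Shares of cells with a UMI were taken after thinning each cell to 1000 UMIs, which left out 1 control and 5 haplodeficient CD8 cells. Unthinned CD8 cells had median depths of 2878 and 2619 UMIs, and CD4 cells 2612 and 2788 UMIs. Pdcd1 was detected in 6.35% of control CD8 cells (1.76 to 15.5) and 14.1% of haplodeficient ones (10.9 to 17.9), and unthinned in 18.8% and 33.9%. Ctla4 was detected in 7.94% and 18.5% (unthinned 25% and 32.9%), and Icos in 28.6% and 19.5% (unthinned 56.2% and 41.1%). The order of these shares followed that of the CPM. In CD4 cells Tox was detected in 43.3% (25.5 to 62.6) and 29.0% (22.8 to 35.8), unthinned in 70.0% and 46.3%. Proximal tubule cells, which should lack these genes, had Pdcd1 in 0 of 2854 thinned control cells and 0 of 341 haplodeficient ones. Taking 3 cells as the limit that a count of 0 allows, rather than an exact interval, shares of cells with a UMI could be up to 0.105% and 0.880%. They had Tox in 0.105% and 0.293%. Unthinned, at median depths of 10622 and 6335 UMIs, the tubule shares were 0.0990% and 0 for Pdcd1 and 1.52% and 1.93% for Tox.

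Inhibitory receptors were also counted per cell, over Pdcd1, Lag3, Havcr2, Tigit, Ctla4 and Cd160. At least 1 of the 6 was detected in 23.8% (14.0 to 36.2) of thinned control CD8 cells and 39.4% (34.7 to 44.3) of haplodeficient ones. At least 2 were detected in 1.59% (0.0402 to 8.53), which was 1 cell, and 9% (6.42 to 12.2). Unthinned, at least 2 were detected in 20.3% and 30.5% of CD8 cells. The CD8 intervals overlapped in each of these comparisons. Unthinned, at least 3 were detected in 0 of 64 control CD8 cells and in 9.86% (7.17 to 13.1) of haplodeficient ones. The intervals for at least 3 did not overlap there. After thinning, at least 3 were detected in 0 of 63 control CD8 cells and 0.487% of haplodeficient ones, with overlapping intervals. CD4 cells showed the opposite order with wide overlap, 43.3% and 38.0% for at least 1 receptor. Gamma-delta cells had the highest shares for at least 1 receptor, 47.8% and 52.1%, and the control interval (26.8 to 69.4) overlapped those of the other classes. The haplodeficient interval (42.7 to 61.5) overlapped those of the other T-cell classes and lay above that of NK-like cells (14.6 to 29.2). For at least 2 receptors control CD4 cells had 10.0% and control gamma-delta cells 8.70%.

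**Figure D4:**
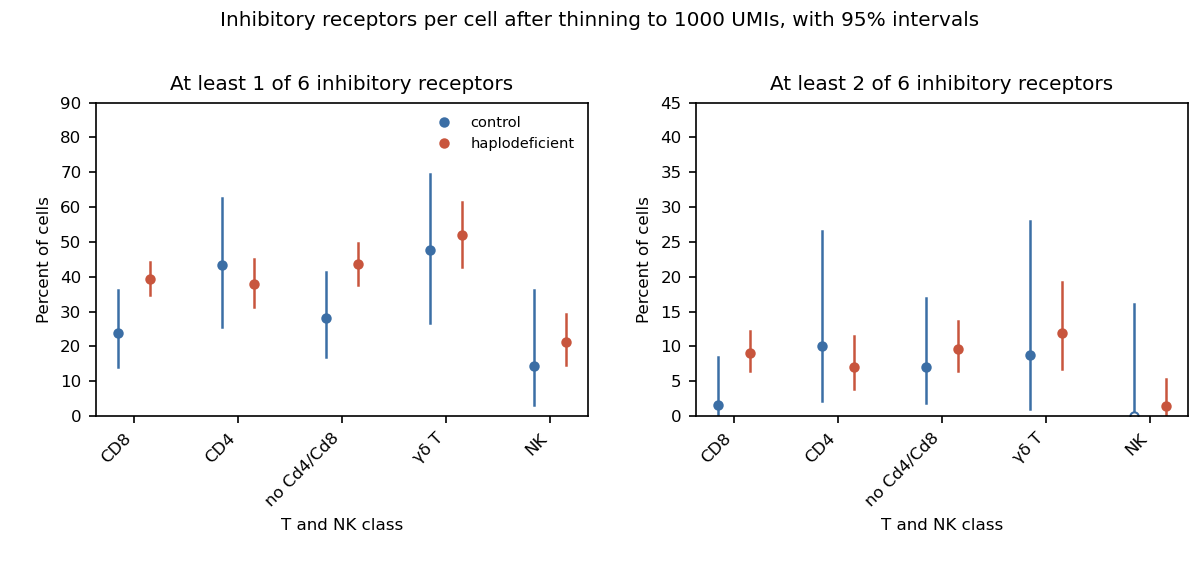
Percent of cells with UMIs of at least 1 and at least 2 of the 6 inhibitory receptors in each lymphocyte class and library after thinning to 1000 UMIs, with exact 95% binomial intervals. In CD8 cells 23.8% and 39.4% had at least 1 receptor. Gamma-delta cells were highest for at least 1 receptor in both libraries, with intervals that overlapped those of the other T-cell classes.

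Within the haplodeficient library some members were found in the same cells. Of CD8 cells with a Ctla4 UMI, 32.9% (22.5 to 44.6) also had an Icos UMI, against 16.4% (12.6 to 20.8) of those without. Of gamma-delta cells with a Pdcd1 UMI, 17 of 34 (95% interval 32.4% to 67.6%) also had Tox, against 26.5% of those without (17.4% to 37.3%). Among T cells with neither coreceptor, Ctla4 was found in 55.9% (37.9 to 72.8) of cells with Pdcd1 and in 33.3% (27.5 to 39.6) of those without. In the same class Icos was found in 50.5% of cells with Ctla4 (40.4 to 60.6) and 30.7% of those without (24.1 to 38.0). The Ctla4 and Icos intervals did not overlap in CD8 cells and in cells with neither coreceptor, whereas the other pairs given here did overlap. Some pairs had the opposite order with overlapping intervals: Icos in 35.3% of CD4 cells with Pdcd1 against 47.5% without, and Ctla4 in 25.6% of gamma-delta cells with Tox against 35.9% without. Of CD8 cells with Pdcd1, 31.0% also had Tox, against 21.5% without. These cells share 1 library, and the shares describe it alone.

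Cd274, the gene of PD-L1, was highest in neutrophils and monocytes and did not separate the libraries in them. Neutrophils had 333 CPM in the control (251 to 434) and 322 CPM in the haplodeficient library (290 to 356). Monocytes had 313 CPM (247 to 392) and 377 CPM (350 to 406), a ratio of 1.2 (0.949 to 1.55). Among the other myeloid cells, dendritic cells had 135 and 141 CPM and macrophages 90.1 and 87.4 CPM. CD4 T cells lay in the same range, at 150 CPM (85.9 to 244) and 132 CPM (105 to 162), and overlapped dendritic cells in both libraries. The haplodeficient CD4 interval lay above that of macrophages. CD8 cells had 52.5 and 52.1 CPM of Cd274, and T cells with neither coreceptor 62 CPM (28.4 to 118) and 115 CPM (92 to 142). Proximal tubule markers summed to 2790 CPM in control monocytes and 11.2 CPM in haplodeficient ones, and their part was not tested. Endothelial cells, where the Cre driver acts, had 62.9 CPM (52.1 to 75.4) and 69.7 CPM (62 to 78.1), a ratio of 1.11 (0.891 to 1.38). A further cluster with endothelial Cldn5 and Aqp1 that stayed unnamed had 38.1 CPM and 24.2 CPM, a ratio of 0.637 (0.421 to 0.968).

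Below the class level Cd274 was not uniform. A dendritic cluster with Xcr1 and Clec9a, genes of the cross-presenting type, had 57 control and 62 haplodeficient cells. Cd274 there was at 88.9 CPM in the control (64.3 to 120) and 182 CPM in the haplodeficient library (149 to 220). The cluster also matched 4 of 4 plasmacytoid dendritic cell markers, Siglech being among its leading genes. A different mix of cell types in the libraries cannot be told apart from a changed level. In the Ccl17 and Cd209a dendritic cells Cd274 was at 157 and 128 CPM. In macrophages led by Ccl8 and Mrc1 Cd274 was at 66.6 CPM (57.2 to 77.2) and 86.7 CPM (77.6 to 96.5), and in those led by Gpnmb and Trem2 at 123 CPM (108 to 140) and 93.7 CPM (85.6 to 102). The class totals thus held parts of opposite order. Among T cells Cd274 was at 297 CPM (184 to 453) in the 30 haplodeficient cells of a subcluster led by the interferon-response genes Ifit3 and Rsad2.

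Havcr2, the gene of TIM-3, was mainly a myeloid transcript here, although the intervals of gamma-delta T cells overlapped those of macrophages. Monocytes had 165 CPM (118 to 225) and 199 CPM (179 to 220), and macrophages 51.4 and 51.7 CPM, a ratio of 1.01. Dendritic cells were the exception, with 154 CPM in the control (135 to 175) and 98.0 CPM in the haplodeficient library (85.8 to 112), a ratio of 0.638 (0.530 to 0.769). The intervals did not overlap, and 232 UMIs lay behind each value. Most of it came from the Xcr1 and Clec9a cells, where Havcr2 was at 382 CPM (329 to 442) and 246 CPM (208 to 290). The Ccl17 and Cd209a cells had 45.8 and 49.0 CPM of Havcr2. The Xcr1 and Clec9a cluster thus had lower Havcr2 and higher Cd274 in the haplodeficient library, and the part of its plasmacytoid-like cells was not tested.

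Lag3 was low in myeloid cells but not evenly so. Macrophages had 5.89 CPM in the control (3.97 to 8.41) and 14.7 CPM in the haplodeficient library (12.4 to 17.2), a ratio of 2.49 (1.67 to 3.82), at a mean under the 20 CPM asked for by the size rule. In macrophages led by Gpnmb and Trem2 Lag3 was at 3.71 CPM in the control (1.49 to 7.64), with a UMI in 6 of 159 cells, and at 21 CPM (17.2 to 25.2) in the haplodeficient library, in 50 of 406 cells. In those led by Ccl8 and Mrc1 it was at 7.91 and 8.28 CPM. Between these macrophage groups, the difference lay in the Gpnmb and Trem2 one. It was not particular to macrophages. Dendritic cells had 6.62 CPM of Lag3 in the control (3.18 to 12.2) and 14.8 CPM in the haplodeficient library (10.3 to 20.6), from 10 and 35 UMIs. Their ratio was 2.23 (1.08 to 5.06), and the intervals of the levels overlapped. Free RNA, taken from barcodes with 1 to 100 UMIs, held 2.83 and 5.64 CPM of Lag3 and made up an estimated 4.03% and 3.50% of macrophage UMIs, which corresponds to 0.114 and 0.197 CPM in these cells. Endothelial cells had 12.4 and 15.7 CPM.

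By the size rule 0.903% of genes compared passed in macrophages, 3.83% in monocytes, 1.63% in dendritic cells, 3.85% in neutrophils and 0.940% in endothelium. Cd274 and Havcr2 could be compared in each of the 4 myeloid classes and Cd274 alone in endothelium, and none passed.

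Tox, a lymphocyte factor by reputation, was also measured in the distal nephron. Distal convoluted tubule cells had 77.9 CPM in the control (72.0 to 84.2) and 83.4 CPM in the haplodeficient library (76.2 to 91), from 637 and 498 UMIs. Principal or connecting tubule cells had 52.0 and 57.1 CPM, and intercalated cells 43.4 and 47.4 CPM. Proximal tubule cells had 1.87 CPM (1.46 to 2.37) and 6.34 CPM (3.92 to 9.69), with 10 of the 21 haplodeficient UMIs in 1 cell. The order of segments was the same in both libraries, and the distal convoluted intervals lay above those of the other segments. Free RNA held 8.01 and 18 CPM of Tox and corresponded to 0.604 and 0.947 CPM in distal convoluted cells. T-cell markers summed to 4.03 and 12.7 CPM there, and their part in the Tox level was not tested. A Tox UMI was present in 45.2% and 45.1% of these cells at median depths of 11133 and 10107 UMIs. Genes past the size rule were 1.51% in the distal convoluted tubule, 2.02% in principal or connecting cells and 1.02% in intercalated cells, and Tox did not pass in any of them. Of the distal convoluted genes past the rule 53.9% were higher in the haplodeficient library, or 39.4% under median-of-ratios scaling.

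Tox also passed the size rule in a dividing cluster that stayed unnamed, where 3.95% of genes compared passed. It was at 14.5 CPM in 40 control cells (8.12 to 23.9; 15 UMIs) and 47.0 CPM in 28 haplodeficient cells (33.7 to 63.8; 41 UMIs), a ratio of 3.24 (1.76 to 6.31). In each library 6 cells had a Tox UMI, and 1 haplodeficient cell held 27 of the 41.

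**Figure D5:**
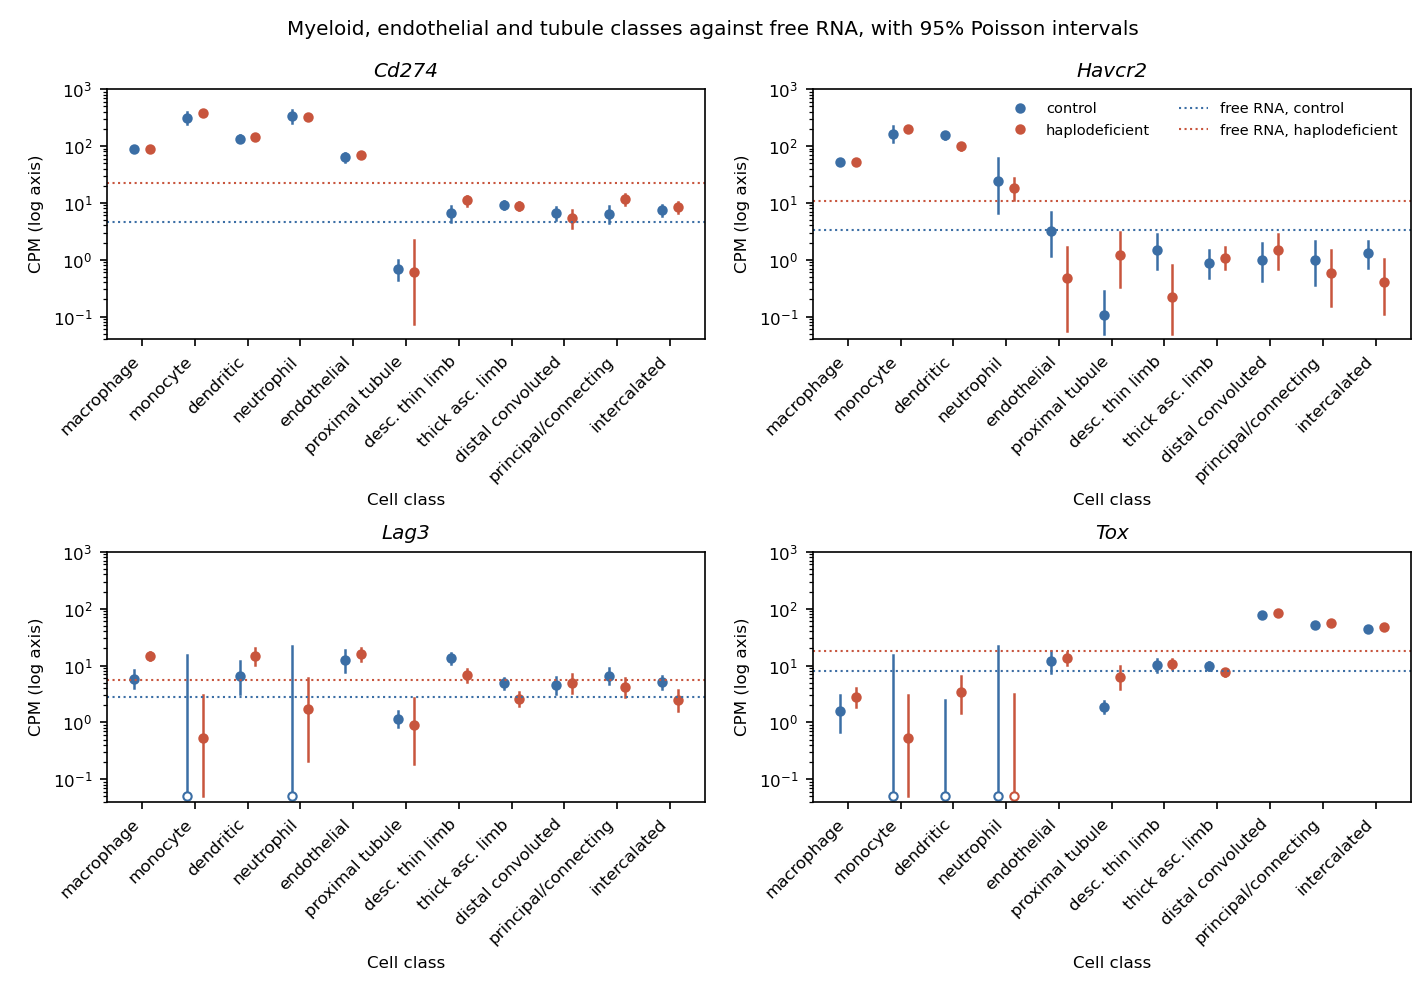
Levels of Cd274, Havcr2, Lag3 and Tox in myeloid, endothelial and tubule classes of both libraries, in CPM on a log axis, with exact Poisson 95% intervals; dotted lines mark free RNA and open circles at 0.05 CPM stand for 0. Havcr2 in dendritic cells (154 and 98.0 CPM) separates the libraries, and Tox in distal segments sits above the free RNA lines at 8.01 and 18 CPM.

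The partners of the members were expressed across the same tissue. Cd86 and Cd80, ligands of CTLA-4 and CD28, were highest in dendritic cells (772 CPM) and neutrophils (448 CPM) of the control, and in monocytes (554 CPM) and neutrophils (362 CPM) of the haplodeficient library. Nectin2, a TIGIT ligand, was highest in principal or connecting cells, at 197 and 222 CPM. Lgals9, a TIM-3 ligand, was highest in endothelium, at 165 and 218 CPM. Ceacam1, another TIM-3 ligand, was highest in monocytes, at 284 and 349 CPM. Lgals3, a LAG-3 ligand, was highest in macrophages, at 1827 and 2615 CPM. Fgl1 reached 5.56 CPM in control proximal tubule and 7.93 CPM in haplodeficient fibroblasts, its highest classes. The fibroblast value came from 7 UMIs (3.19 to 16.3). Icosl, the ICOS ligand, was highest in dendritic cells at 32.5 and 24.5 CPM. Pvr was highest in dendritic cells of the control (57.6 CPM) and descending thin limb of the haplodeficient library (44.2 CPM). Pdcd1lg2, the second PD-1 ligand, was highest in control NK-like cells at 110 CPM (47.5 to 217), from only 8 UMIs. In the haplodeficient library it was highest in T cells with neither coreceptor at 134 CPM (109 to 163), from 99 UMIs. Of the 14 partner genes listed, 6 could be compared in CD8 cells and 1 was lower past the size rule: Lgals3, at 344 and 144 CPM, where macrophage markers summed to 330 and 173 CPM. None of the 6 compared in CD4 cells, 5 in NK-like cells, 7 in macrophages, 9 in monocytes, 9 in dendritic cells or 7 in endothelium passed.

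Other receptors of the same kind were lower or level in T cells. Of 12 other inhibitory receptors, 10 were compared in CD8 cells and 2 were lower past the rule: Klrc1 (NKG2A), at 115 and 32.3 CPM, and Cd244a (2B4), at 90.8 and 35.9 CPM. In CD4 cells 8 were compared and 2 were lower: Cd96, at 207 and 83.2 CPM, and Cd200r1, at 216 and 80.1 CPM. The list medians were -0.40 and -0.42 on the log2 scale, against -0.07 and 0.01 for all genes compared. None was higher past the rule in either class. In NK-like cells 6 were compared and none passed, with a median of 1.69 against 0.15 for all genes, from 1 to 12 control UMIs a gene. NK-cell markers summed to 721 CPM in control CD8 cells and 359 CPM in haplodeficient ones, and their part in the Klrc1 and Cd244a values was not tested. None of 6 costimulatory receptors compared in CD8 cells or 8 in CD4 cells passed. None of 8 shared signalling genes compared passed in CD8 or CD4 cells, while Lck, the T-cell receptor kinase, was higher in NK-like cells at 179 and 372 CPM.

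Among 17 exhaustion and T-cell state factors, the early activation factor Nr4a2 was higher in the haplodeficient library in both CD8 cells (90.8 and 452 CPM) and CD4 cells (103 and 260 CPM). The CD8 ratio was 4.98 (3.16 to 8.33). Nr4a2 was also higher past the rule in T cells with neither coreceptor and in gamma-delta cells. Nr4a1 in CD4 cells gave 1 control UMI and 169 haplodeficient ones. Zeb2, a factor of terminal effector cells that macrophages also express, was lower in CD8 cells at 277 and 67.4 CPM. Of 15 factors compared in CD8 cells 1 was higher and 1 lower, and of 14 in CD4 cells 2 were higher. In NK-like cells Ikzf2 (Helios) was higher, at 206 and 1130 CPM. In monocytes Id3 was higher (28.9 and 117 CPM), and Id2 (519 and 153 CPM) and Prdm1 (74.2 and 31.0 CPM) were lower.

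Effector genes were compared in the same way over a list of 10. The cytokine gene Tnf was higher in haplodeficient CD8 cells (52.5 and 238 CPM) and CD4 cells (84.6 and 448 CPM), and Ifng in CD4 cells (75.2 and 275 CPM). Gzma, a granzyme of cytotoxic cells, was lower in CD8 cells at 387 and 152 CPM. The chemokine gene Ccl5 was higher in NK-like cells (3052 and 16607 CPM) and dendritic cells (301 and 853 CPM). Tnf and Ccl5 were also higher past the rule in T cells with neither coreceptor and in gamma-delta cells. Ccl5 was so too in the descending thin limb and in principal or connecting cells, so its rise was not particular to leukocytes. The NK-like values of Ikzf2, Lck and Ccl5 include the Klra-led subcluster that had no control cell, and its part in them was not tested. No gene of these lists passed in macrophages or endothelium.

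Over 44 points (22 classes in 2 libraries), the genes whose log2(CPM + 5) followed each member most closely were found among 13166 genes. Pdcd1 was followed by 1700097N02Rik (Pearson's r = 0.98), Cxcr6 (0.97) and Sit1 (0.97). Ctla4 was followed by Lat (0.99), Cd247 (0.98) and Podnl1 (0.97), and Icos by Lat (0.99), Cxcr6 (0.99) and Podnl1 (0.98). The nearest genes of Tigit were Sh2d1a (0.98), Gimap7 (0.97) and Gm12167 (0.97), and those of Cd160 were Gm28960 (0.96), Gm34794 (0.94) and Klrc2 (0.94). Cd274 was nearest to Grk2 (0.93), Myo1f (0.91) and Srgn (0.91), and Havcr2 to Irf5 (0.94), Ctss (0.89) and Bcl2a1a (0.89). Tox was nearest to Skap1 (0.92), Ikzf2 (0.91) and Rexo5 (0.89), and Lag3 to Fgd6 (0.74), Sult1a1 (0.72) and Nckap5l (0.71). Among the members Ctla4 and Icos were most alike (0.99), Pdcd1 and Icos had 0.97, and Pdcd1 and Lag3 had -0.17. The points share libraries, depth and free RNA, and the values describe where genes were measured and no more.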

How the data were processed

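Each library was a kidney cell suspension measured with 10x Genomics 3′ v3.1 chemistry, per the labels' protocols. The deposited values were raw UMI counts for all barcodes, neither filtered nor normalised. Per the file headers Cell Ranger 4 produced them, and per the submitters' processing notes the build was mm10. The control library held 134190236 UMIs over 1342632 barcodes and the haplodeficient one 114668145 UMIs over 1430043 barcodes.

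Cells passed the limits of 500 UMIs, 200 genes and 50% mitochondrial UMIs. Those with the highest Scrublet scores were removed at 0.8% per 1000 cells (715 and 804 cells), so doublets may remain. Cells of both libraries were clustered together (scanpy 1.11.5, leidenalg 0.10.2; 2000 variable genes without the members, 30 principal components, resolution 1). Classes were named from fixed marker lists, by scoring chosen once the data had been seen. T cells were divided by Cd4, Cd8a and Cd8b1 UMIs: the class with neither includes cells in which those genes went undetected. Counts were summed per class and library as CPM, with Poisson intervals, conditional binomial intervals for ratios and Clopper-Pearson intervals for shares (SciPy 1.17.1). Logarithms used a pseudocount of 5 CPM. No edgeR or DESeq2 fit was made, since each group had 1 library. The size rule was run on simulated Poisson counts. These held no variation between cells or animals, so they cannot show how the rule behaves under it. UMIs were thinned to 1000 per cell for shares.

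The members and gene lists were chosen with earlier results of these data known. Named genes were all members, the 3 nearest patterns of each, partner genes with their highest class, and listed genes past the size rule (up to 3 each way) in CD8, CD4, NK-like, macrophage, monocyte, dendritic and endothelial cells. Clusters within the dendritic and macrophage classes were looked at after the class values were seen. Alternatives covered scaling, doublets, cell limits, class splits, thinning and free RNA. Ambient RNA was not removed in the reported values. Gene positions were from GENCODE M21 and promoters from RefSeq.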

Additional observations from a re-analysis of the deposited data

Results flagged for a closer look

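Pdcd1 stood on opposite sides of 1 in different T cells. Its ratio of the haplodeficient to the control library was 1.57 in CD8 cells and 0.539 in CD4 cells, and the counting interval of each excluded 1. In gamma-delta cells the ratio was 1.68, against the same 0.539 in CD4 cells. Tox did likewise, with 1.51 in CD8 cells against 0.421 in CD4 cells and 0.603 in T cells with neither a Cd4 nor a Cd8 UMI. The differences between classes were not tested, since each group had 1 library. The CD8 values of both genes, and the CD4 value of Pdcd1, were close to no difference when classes were taken from subclusters (log2 0.08, 0.12 and -0.06), whereas Tox in CD4 cells was at -1.05.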

How the results depend on the processing

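No paired analysis was possible because each group has 1 library. Of 371 alternative values for 40 member ratios, 361 lay within the counting error of the reported ratio and 10 moved beyond it. No called ratio changed sign. Wide intervals make this a loose measure. Those within included CD8 Pdcd1 at log2 0.08 in place of 0.63 and NK-like Cd160 at 0.38 in place of 1.53. Leiden resolution 2 left the T and NK classes with the same cell numbers, so it was hardly an alternative for them. The CD4 Tox log2 difference ran from -1.28 to -0.86 and the NK-like Cd160 difference from 0.38 to 2.59, apart from 3.31 with 18 control cells under a mitochondrial limit of 25%. Over the named classes, the number of member and class pairs past the size rule was 2, also with eligibility at 50 CPM and 30 UMIs. It was 1 under median-of-ratios scaling, a UMI minimum of 1000 and a mitochondrial limit of 25% (Tox in CD4 cells each time; those 18 cells are under the 20 asked for in counting pairs), and 1 with doublets kept (Cd160 in NK-like cells; Tox in CD4 cells was then at -0.97).

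Among all genes, eligibility at 50 CPM and 30 UMIs left 25 past the rule in macrophages, 119 in monocytes, 43 in dendritic cells, 30 in endothelium, 60 in the distal convoluted tubule, 86 in principal or connecting cells and 46 in intercalated cells, since fewer genes were compared. The reported counts were 49, 215, 89, 66, 102, 141 and 72. With doublets kept there were 261 in CD4 cells (reported 144), 306 in NK-like cells (192), 76 in macrophages and 108 in endothelium. A UMI minimum of 1000 gave 97 in macrophages, and the 25% limit gave 91 there and 66 in the distal convoluted tubule. The cause was not tested. Shares moved in 85 of 112 alternatives, as another thinning depth sets another detection level. Leaving out the top cell and adding the Cldn5 and Aqp1 cluster to endothelium were chosen after seeing the data. Depth limits Lag3, Havcr2 and Tigit in T cells, and every control lymphocyte value.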

Other observations

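The T cells with both Cd4 and Cd8 UMIs, 1 control and 11 haplodeficient cells, belong to none of the classes compared. Cd274 gave 8 UMIs in the control cell and 4 in the haplodeficient cells. Pdcd1 gave 1 and 11 UMIs in these cells.

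Lag3 was at 19.4 CPM (10.0 to 34.0) in control fibroblasts and 7.93 CPM (3.19 to 16.3) in haplodeficient ones, from 12 and 7 UMIs. In the descending thin limb Lag3 was at 13.3 CPM (10.6 to 16.5) and 6.74 CPM (5.14 to 8.67), the opposite order to that in macrophages. Fibroblast Cd274 was at 6.48 CPM (1.77 to 16.6) and 28.3 CPM (18.3 to 41.8), from 4 and 25 UMIs.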
